A study of Arabidopsis thaliana with 15 samples.

Results

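HHO1 (AT3G25790), HHO2 (AT1G68670) and HHO3 (AT1G25550) are 3 genes of the small HRS1/HHO family of Arabidopsis thaliana, which encodes transcription factors of the GARP class. They were taken by locus. Each of the 3 genes had 1 probe set annotated to it alone, 257645_at for HHO1, 262284_at for HHO2 and 255734_at for HHO3, so the genes account for 3 of the 22746 probe sets measured. Roots of Columbia-0 plants grown in hydroponic culture to growth stage 5.10 were used, and every group had first been kept without nitrogen for 26 h. The groups were roots 1.5 h and 8 h after 1 mM nitrate, roots 1.5 h and 8 h after 1 mM ammonium, and roots taken just before supply. Each group had 3 biological replicates, each a pool of roots from at least 5 plants, and each of the 15 samples was hybridised to 1 array.

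GARP proteins bind DNA through a single MYB-like domain. Proteins of the clade that holds HRS1, HHO1, HHO2 and HHO3, also called NIGT1, are known as repressors of transcription. Their genes are switched on by nitrate through the NLP transcription factors, and the proteins hold down genes of nitrogen starvation, among them those of high-affinity nitrate transporters of the NRT2 family. They also link nitrate supply with the phosphate starvation response, and they act on the transcription of their own clade.

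Levels are RMA values of a probe set on the log2 scale and differences are in log2 units, given ± the standard error of limma's fit over all probe sets. The words rose and fell are kept for differences called at a limma p under 0.05 after Benjamini-Hochberg adjustment over all 22746 probe sets. The median level of a sample ranged from 6.76 to 6.83. Roots contain many cell types, so a change in the cells that express a gene and a change in the number of such cells cannot be told apart. No root kept without nitrogen was taken at 1.5 h or 8 h, so each difference from the roots before supply also holds the time since that harvest. The counter-ions of the 2 supplies were not stated. Of 13 listed root markers 2 had a named probe set. PYK10, a root beta-glucosidase, lay at 12.16 to 12.92, and EXPA7, an expansin of root hairs, at 9.72 to 10.51. The levels of both markers differed between groups. PYK10 rose by 0.58 ± 0.08 at 8 h of nitrate (limma, adjusted p = 4.1e-05), by 0.61 ± 0.08 at 8 h of ammonium (adjusted p = 4.7e-05) and by 0.27 ± 0.08 at 1.5 h of ammonium (adjusted p = 0.031), each over the roots before supply. The last of these calls was lost in 7 of 13 alternatives, among them without any ammonium replicate of that time or without replicate 1 or 2 before supply (adjusted p = 0.059 to 0.13). PYK10 also rose between 1.5 h and 8 h, with 1 sample left out by 0.36 to 0.42 with nitrate and 0.32 to 0.36 with ammonium (limma, highest adjusted p = 0.018 and 0.038). EXPA7 rose by 0.38 ± 0.12 at 8 h of nitrate (adjusted p = 0.028), a call lost without nitrate replicate 2 or 3 or without replicate 2 or 3 before supply (adjusted p = 0.081 to 0.098). At 1.5 h EXPA7 was 0.41 ± 0.12 higher with nitrate than with ammonium (adjusted p = 0.031), a call lost in 6 of 13 alternatives, among them without nitrate replicate 1 or 3 or ammonium replicate 2 or 3 (adjusted p = 0.083 to 0.15). Their part in the results on the HHO genes was not tested. Of 12 listed leaf markers only RCA, Rubisco activase, had one, at 5.82 to 6.46.

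HHO1 was high in every sample supplied with nitrate and low in every other sample. Its nitrate levels were 9.31, 9.42 and 9.23 at 1.5 h, followed by 8.78, 8.72 and 8.72 at 8 h. With ammonium they were 3.98, 3.83 and 3.65 at 1.5 h and 3.85, 3.50 and 3.61 at 8 h. Before supply they were 3.95, 3.67 and 3.84. The 6 nitrate samples and the other 9 samples were separated by a gap, from 3.98 up to 8.72, in which no sample lay. The 9 low values were above only 11.2% to 17.7% of the probe sets of their own sample, under the lower quartile of 4.36 to 4.52, and the deposited values carry no detection call. HHO1 was therefore not shown to be above background without nitrate, and no fold is given for it.

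In RMA level HHO1 rose by 5.50 ± 0.10 at 1.5 h of nitrate (limma, adjusted p = 1.5e-14) and by 4.92 ± 0.10 at 8 h of nitrate (adjusted p = 5.4e-14), both against the roots before supply. Both sizes are differences in RMA level from values not shown to be above background, so they do not measure the change in RNA, which could be larger. With ammonium the difference from the roots before supply was 0.00 ± 0.10 at 1.5 h (95% interval −0.22 to 0.22, adjusted p = 0.99) and −0.17 ± 0.10 at 8 h (95% interval −0.39 to 0.06, adjusted p = 0.33). These intervals bound the change in RMA level at a dim probe set.

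**Figure D1:**
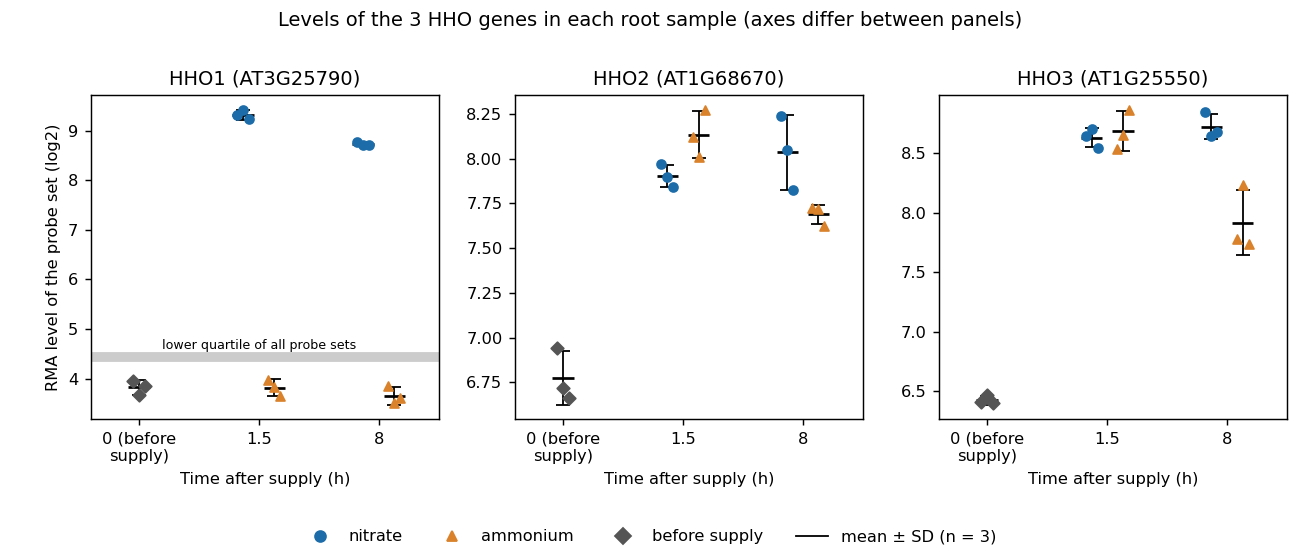
RMA level (log2) of the probe sets of HHO1, HHO2 and HHO3 in each of the 15 root samples against time after supply, with mean ± SD of each group (n = 3). HHO1 lies between 8.72 and 9.42 in the 6 nitrate samples and under the lower quartile of all probe sets in the other 9, while HHO2 and HHO3 lie above the roots before supply in all 12 supplied samples.

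HHO2 was higher after either form of nitrogen than before supply, a difference in which supply and time cannot be told apart. Its levels were 7.97, 7.90 and 7.84 after 1.5 h of nitrate, then 8.24, 8.05 and 7.82 after 8 h. The ammonium samples had 8.12, 8.01 and 8.27 at 1.5 h, then 7.72, 7.72 and 7.63 at 8 h. The roots before supply had 6.94, 6.72 and 6.66. All 12 supplied samples lay above all 3 samples before supply, and the narrowest gap was that between 8 h of ammonium and the roots before supply.

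Against the roots before supply, HHO2 rose by 1.13 ± 0.10 at 1.5 h of nitrate (2.18-fold, limma, adjusted p = 9.8e-07) and by 1.26 ± 0.10 at 8 h of nitrate (2.39-fold, adjusted p = 1.9e-07). It rose by 1.36 ± 0.10 at 1.5 h of ammonium (2.56-fold, adjusted p = 2.7e-07) and by 0.91 ± 0.10 at 8 h of ammonium (1.88-fold, adjusted p = 1.4e-05). The share of probe sets with a lower change than HHO2 was 98.8% at both times of nitrate, and with ammonium it was 99.3% at 1.5 h and 98.6% at 8 h.

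HHO3 was also higher after either form than before supply, with the same limit. Its levels were 8.65, 8.71 and 8.54 after 1.5 h of nitrate, then 8.84, 8.65 and 8.68 after 8 h. At 1.5 h of ammonium they were 8.53, 8.66 and 8.87. At 8 h of ammonium they were 7.78, 8.24 and 7.74, with replicate 2 above the other two. The roots before supply lay close together at 6.41, 6.47 and 6.40. No supplied sample came within 1 log2 unit of them.

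HHO3 rose by 2.21 ± 0.12 at 1.5 h of nitrate (4.63-fold, limma, adjusted p = 2.1e-09) and by 2.30 ± 0.12 at 8 h of nitrate (4.93-fold, adjusted p = 7.1e-10). With ammonium it rose by 2.26 ± 0.12 at 1.5 h (4.80-fold, adjusted p = 3.9e-09) and by 1.49 ± 0.12 at 8 h (2.82-fold, adjusted p = 2.9e-07). At 1.5 h of ammonium the rise of HHO3 ranked 37 of the 22746 probe sets, and at 1.5 h of nitrate it ranked 63.

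Counted together, 3 of the 3 genes rose at 1.5 h of nitrate, where 5.97% of all probe sets rose, and 3 of 3 rose at 8 h of nitrate, where 8.93% did. With ammonium 2 of 3 rose at 1.5 h, where 5.97% of probe sets rose, and 2 of 3 at 8 h, where 7.72% did. None of the 3 fell in these comparisons. The median change of the 3 genes was 2.21 at 1.5 h of nitrate, 2.30 at 8 h of nitrate, and with ammonium 1.36 at 1.5 h and 0.91 at 8 h, while the median of all probe sets lay between −0.04 and −0.02. The 4 comparisons share the roots before supply. The genes were chosen with earlier results of these data known, so these counts and the ranks above are descriptions.

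Direct comparison of the 2 forms set HHO1 apart from its relatives. The RMA level of HHO1 was 5.50 ± 0.10 higher with nitrate than with ammonium at 1.5 h (limma, adjusted p = 3e-14) and 5.08 ± 0.10 higher at 8 h (adjusted p = 9.8e-14). The sizes again depend on ammonium values not shown to be above background. At 1.5 h HHO3 differed by −0.05 ± 0.12 (95% interval −0.30 to 0.20, adjusted p = 0.85) and HHO2 by −0.23 ± 0.10 (95% interval −0.45 to −0.01, adjusted p = 0.19). The nitrate and ammonium values of HHO2 at 1.5 h did not overlap, at 7.84 to 7.97 and 8.01 to 8.27, and those of HHO3 did. Thus 1 of the 3 genes was called higher with nitrate at 1.5 h, against 5.61% of all probe sets.

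At 8 h the nitrate samples were higher for all 3 genes, against 5.4% of all probe sets so called. HHO3 was 0.81 ± 0.12 higher with nitrate (1.75-fold, limma, adjusted p = 0.00018), and its 2 groups did not overlap, at 8.65 to 8.84 and 7.74 to 8.24. HHO2 was 0.35 ± 0.10 higher (1.27-fold, adjusted p = 0.041), with 7.82 to 8.24 against 7.63 to 7.72. The call of HHO2 was lost when any of 5 of the 6 samples was left out, namely nitrate replicates 1 and 2 and all 3 ammonium replicates (adjusted p = 0.17, 0.11, 0.08, 0.083 and 0.14), and with only these groups in the fit (adjusted p = 0.074).

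**Figure D2:**
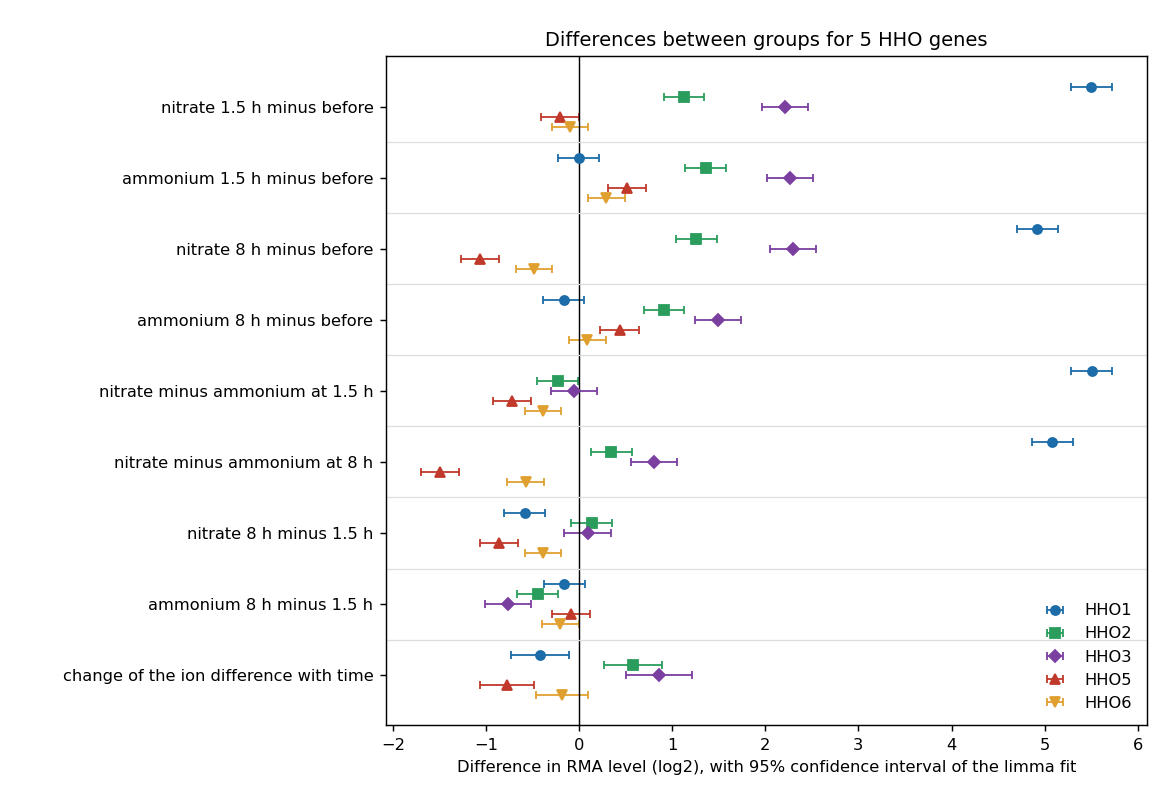
Differences in RMA level (log2) between groups for HHO1, HHO2, HHO3, HHO5 and HHO6, with 95% confidence intervals of the limma fit over 15 samples. HHO1 stands at 4.92 or above in all 4 comparisons of nitrate with another group, HHO2 and HHO3 are positive for both forms, and HHO5 and HHO6 are below 0 where nitrate is set against ammonium.

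The time course within each form differed among the genes. With nitrate, HHO1 fell by 0.58 ± 0.10 at 8 h relative to 1.5 h (limma, adjusted p = 0.0013), with no overlap between 8.72 to 8.78 at 8 h and 9.23 to 9.42 at 1.5 h. HHO2 stood at 0.13 ± 0.10 (95% interval −0.09 to 0.35, adjusted p = 0.5) and HHO3 at 0.09 ± 0.12 (95% interval −0.16 to 0.34, adjusted p = 0.72). So 1 of the 3 genes fell with nitrate between the times, where 6.05% of all probe sets did.

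With ammonium it was HHO3 and HHO2 that came down. HHO3 fell by 0.77 ± 0.12 at 8 h relative to 1.5 h (1.70-fold lower, limma, adjusted p = 0.00049) and HHO2 fell by 0.45 ± 0.10 (1.36-fold lower, adjusted p = 0.0099), in both cases without overlap between the times. HHO1 was at −0.16 ± 0.10 (95% interval −0.38 to 0.06, adjusted p = 0.36), with both times under the lower quartile. The 2 falls of 3 stand beside 5.64% of all probe sets that fell.

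Whether the nitrate minus ammonium difference itself changed between 1.5 h and 8 h was tested as an interaction. The change was 0.86 ± 0.16 for HHO3 (limma, adjusted p = 0.0068) and 0.58 ± 0.15 for HHO2 (adjusted p = 0.034), each toward nitrate at 8 h. It was −0.42 ± 0.15 for HHO1 (95% interval −0.73 to −0.11, adjusted p = 0.13). Upward changes were called for 2 of the 3 genes and for 2.28% of all probe sets. The HHO2 call was lost in 9 of the 12 fits that left out 1 sample (adjusted p = 0.058 to 0.083 in those), and that of HHO3 was not lost in any of them (highest adjusted p = 0.023).

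The response to the form of nitrogen was also compared between the genes, over the 12 supplied samples, by an exact permutation test that exchanged nitrate and ammonium labels within each time. Averaged over both times, nitrate minus ammonium was 5.29 for HHO1 (exact two-sided p = 0.005, adjusted p = 0.015 over the 3 genes), 0.38 for HHO3 (exact p = 0.065, adjusted p = 0.098) and 0.06 for HHO2 (exact p = 0.645, adjusted p = 0.65). The smallest p that the 400 arrangements allow is 0.005. This average joins 2 times between which the differences of HHO2 and HHO3 changed.

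Between genes, the nitrate minus ammonium difference of HHO1 exceeded that of HHO2 by 5.23 and that of HHO3 by 4.92, and the difference of HHO3 exceeded that of HHO2 by 0.32. Each of these 3 pairs had the smallest exact p that the test allows (p = 0.005, two-sided, adjusted p = 0.005 over the 3 pairs). For both pairs with HHO1 this p follows from the wide gap of HHO1 between the forms, already shown above. It is therefore not separate evidence. The sizes for both pairs with HHO1 depend on its ammonium values, which were not shown to be above background. For HHO3 against HHO2 the excess was 0.18 at 1.5 h and 0.46 at 8 h. With 1 sample left out, its average over both times was 0.28 to 0.39 (exact adjusted p = 0.005 to 0.04). The test compares RMA levels of different probe sets, so a difference in probe response and a difference in RNA cannot be told apart.

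Nitrate at 8 h and ammonium at 1.5 h were not called different for HHO2 or for HHO3. Apart from the places of these 2 groups, HHO2 and HHO3 had the same order of the 5 group means. For HHO1 it was nitrate at 1.5 h (9.32 ± 0.10, SD, n = 3 here and below), nitrate at 8 h (8.74 ± 0.04), the roots before supply (3.82 ± 0.14), ammonium at 1.5 h (3.82 ± 0.17) and ammonium at 8 h (3.66 ± 0.18), and no difference was called among the last 3. For HHO2 it was ammonium at 1.5 h (8.13 ± 0.13), nitrate at 8 h (8.04 ± 0.21), nitrate at 1.5 h (7.90 ± 0.06), ammonium at 8 h (7.69 ± 0.05) and the roots before supply (6.78 ± 0.15). Among these, neighbours other than the last 2 were not called different. Nitrate at 8 h against ammonium at 1.5 h was −0.10 ± 0.10 (adjusted p = 0.6, where 8.89% of probe sets were called lower) and nitrate at 1.5 h against ammonium at 8 h was 0.21 ± 0.10 (adjusted p = 0.22), in comparisons added after the values were seen. For HHO3 nitrate at 8 h (8.72 ± 0.11), ammonium at 1.5 h (8.69 ± 0.17) and nitrate at 1.5 h (8.63 ± 0.08) were level. Below them lay ammonium at 8 h (7.92 ± 0.28), over which nitrate at 1.5 h was 0.72 ± 0.12 higher (adjusted p = 0.00044, where 7.28% of probe sets were called higher), and then the roots before supply (6.42 ± 0.04).

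HHO2 and HHO3 had like profiles. Over the 15 samples their values correlated at r = 0.97, against 0.42 for HHO1 with HHO2 and 0.54 for HHO1 with HHO3. After each group's mean was taken out, the correlations were 0.40, 0.12 and −0.52. These are descriptions over samples that share their groups and arrays.

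Of the other 4 genes of the family, HHO5 (AT4G37180) and HHO6 (AT1G49560) had a named probe set, and HRS1 and HHO4 were not analysed here. The tables give these loci without the family names, which are used from general knowledge. Unlike the 3 above, neither gene rose with nitrate, where 5.97% of all probe sets rose at 1.5 h and 8.93% at 8 h. HHO5 had 7.02, 7.10 and 7.03 after 1.5 h of nitrate, then 6.19, 6.26 and 6.13 after 8 h. With ammonium it had 7.93, 7.78 and 7.60 at 1.5 h and 7.71, 7.56 and 7.80 at 8 h, against 7.42, 7.09 and 7.25 before supply. At both times all nitrate samples lay below all ammonium samples.

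After 8 h of nitrate HHO5 had fallen below its level before supply, at −1.06 ± 0.10 (limma, adjusted p = 6.3e-07), while at 1.5 h of nitrate it stood at −0.21 ± 0.10 (adjusted p = 0.2). It rose with ammonium, as HHO2 and HHO3 did, by 0.52 ± 0.10 at 1.5 h (adjusted p = 0.0017) and 0.43 ± 0.10 at 8 h (adjusted p = 0.0047). Nitrate against ammonium was −0.72 ± 0.10 at 1.5 h (adjusted p = 9.5e-05) and −1.50 ± 0.10 at 8 h (adjusted p = 2.9e-08). The widening between the times was −0.77 ± 0.14 (adjusted p = 0.0037), opposite in sign to that of HHO2 and HHO3, and downward changes were called for 2.22% of all probe sets.

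HHO6 ranged from 6.22 to 6.24 at 8 h of nitrate, from 6.71 to 6.86 at 8 h of ammonium and from 6.66 to 6.78 before supply. After 8 h of nitrate it fell by 0.49 ± 0.09 relative to its level before supply (limma, adjusted p = 0.0012, where 11.7% of all probe sets fell). Nitrate minus ammonium was −0.39 ± 0.09 at 1.5 h (adjusted p = 0.012) and −0.57 ± 0.09 at 8 h (adjusted p = 5e-04). The call at 1.5 h was lost with only these groups in the fit (adjusted p = 0.063) and without nitrate replicate 1 or ammonium replicate 1 (adjusted p = 0.06 and 0.065). Its rise at 1.5 h of ammonium, 0.29 ± 0.09 (adjusted p = 0.049), was lost in 9 of 13 alternatives, among them without any 1 of the samples of both groups (adjusted p = 0.06 to 0.2). Both relatives were thus called lower with nitrate than with ammonium at both times, where 5.08% of probe sets were at 1.5 h and 5.28% at 8 h.

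**Figure D3:**
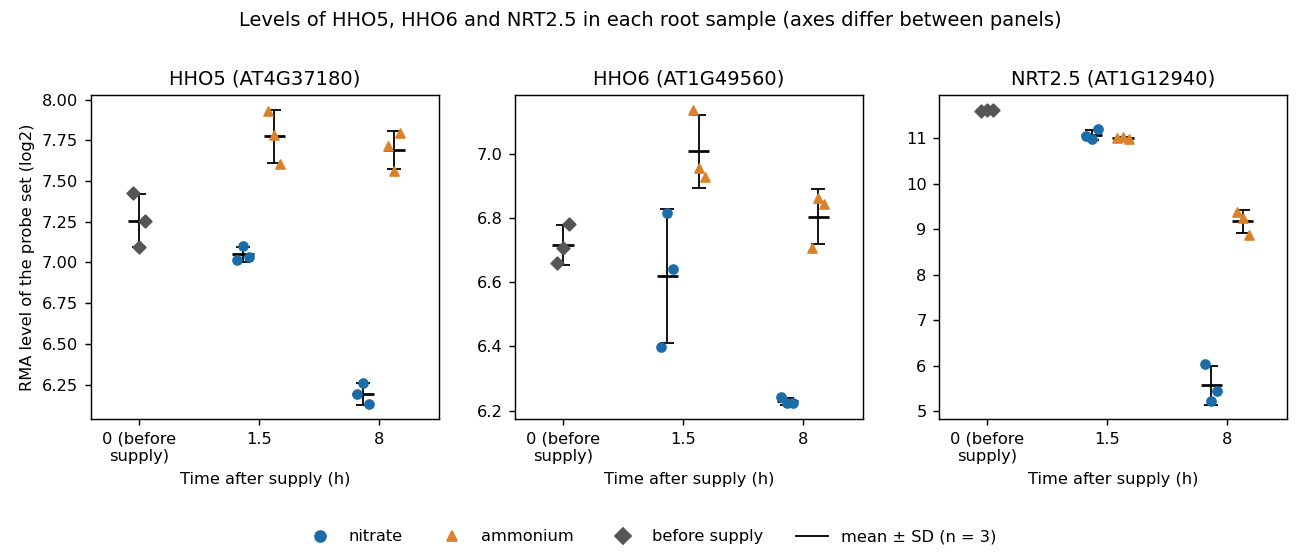
RMA level (log2) of HHO5, HHO6 and the nitrate transporter gene NRT2.5 in each of the 15 root samples against time after supply, with mean ± SD of each group (n = 3). HHO5 and HHO6 lie lower with nitrate than with ammonium at both times, and NRT2.5 is at 5.22 to 6.03 at 8 h of nitrate, against 8.88 to 9.39 at 8 h of ammonium.

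A wider list of 30 GARP genes outside the family, written after the data had been seen, had 14 with a named probe set. At 1.5 h of nitrate 2 of the 14 rose and 4 fell, with a median of −0.03, and at 8 h of nitrate 2 rose and 3 fell, with a median of −0.07. With ammonium 2 rose and 2 fell at 1.5 h (median −0.09), and 0 rose and 2 fell at 8 h (median −0.04). At 1.5 h of nitrate MYBC1 (AT2G40970) fell by 0.70 ± 0.10 (adjusted p = 0.00012), AT1G69580 rose by 0.77 ± 0.11 (adjusted p = 0.00015) and AT5G06800 rose by 0.63 ± 0.10 (adjusted p = 0.00042). Changes of the 14 genes against the roots before supply lay between −0.78 (AT5G05090 at 1.5 h of nitrate) and 0.77, smaller in size than each of the 4 changes of HHO2 and of HHO3. Of all probe sets, 5.97% rose and 7.29% fell at 1.5 h of nitrate, and 8.93% rose and 11.7% fell at 8 h of nitrate. With ammonium 5.97% rose and 7.83% fell at 1.5 h, and 7.72% rose and 9.91% fell at 8 h.

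NRT2.5 (AT1G12940), a high-affinity nitrate transporter gene of nitrogen-starved roots and a known target of repression by the NIGT1 proteins, was the 1 gene of 12 listed for nitrogen uptake in starvation with a named probe set. At 1.5 h it was at 11.04, 10.98 and 11.21 with nitrate and 11.01, 11.03 and 10.98 with ammonium, a difference of 0.07 ± 0.16 (limma, adjusted p = 0.86). Against 11.61, 11.63 and 11.63 before supply it had fallen by 0.54 ± 0.16 with nitrate (adjusted p = 0.033) and 0.61 ± 0.16 with ammonium (adjusted p = 0.017). The first call was lost in 5 of 13 alternatives, without nitrate replicate 1 or 2 (adjusted p = 0.09 and 0.12) or any replicate before supply (adjusted p = 0.072, 0.072 and 0.079), and the second without ammonium replicate 3 (adjusted p = 0.052). At 8 h it was at 6.03, 5.22 and 5.46 with nitrate and 9.39, 9.26 and 8.88 with ammonium, a difference of −3.60 ± 0.16 (adjusted p = 4.9e-10). It had then fallen by 6.05 ± 0.16 with nitrate and 2.45 ± 0.16 with ammonium relative to the roots before supply.

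Of 19 listed genes of the primary nitrate response, PGD3 (AT5G41670) and PGD1 (AT1G64190) had a named probe set. Both encode 6-phosphogluconate dehydrogenases, which supply reductant. Both rose in all 4 comparisons with the roots before supply, PGD3 by 2.34 ± 0.07 and PGD1 by 1.52 ± 0.06 at 1.5 h of nitrate, and by 0.95 ± 0.07 and 0.49 ± 0.06 at 1.5 h of ammonium. Unlike HHO2 and HHO3, both were called higher with nitrate than with ammonium at 1.5 h, by 1.39 ± 0.07 for PGD3 (adjusted p = 4.7e-09) and 1.03 ± 0.06 for PGD1 (adjusted p = 3.3e-08). Of 16 listed genes of nitrate signalling only NRG2 (AT3G60320) had a named probe set, and it fell by 0.24 ± 0.07 at 1.5 h of ammonium (limma, adjusted p = 0.027), a call lost in 8 of 13 alternatives (adjusted p = 0.05 to 0.1 in those), among them without replicate 2 or 3 before supply or any ammonium replicate of that time. The lists for phosphate starvation (18 genes) and ammonium assimilation (12 genes) had 0 genes with a named probe set.

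The named genes with profiles most like each HHO gene were found by Pearson's r over the 15 samples, among 571 probe sets of 1 named gene whose group means spanned at least 1 log2 unit. For HHO1 they were AT4G02920 (r = 0.98), the cytochrome P450 gene CYP78A9 (0.98), AT2G46620 (0.98), AT2G22200 (0.98) and AT4G03500 (0.98). These were high with nitrate at both times, as CYP78A9 shows with group means of 9.02 and 8.83 with nitrate (1.5 h, 8 h), 7.09 and 6.90 with ammonium (1.5 h, 8 h), and 6.74 before supply. The most opposed were AT2G33710 (r = −0.97) and AT5G14730 (r = −0.95).

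For HHO2 the closest gene was HHO3 (r = 0.97), followed by AT4G38810 (0.94), AT5G03380 (0.94), AT4G18340 (0.93) and AT3G19030 (0.93). For HHO3 they were AT4G18340 (0.97), AT3G19030 (0.97), AT4G38810 (0.97), HHO2 (0.97) and WNK7 (0.96), a gene of the WNK protein kinases. AT4G18340, AT3G19030 and AT4G38810 thus stood in both sets of 5. The most opposed were AT4G25250 (r = −0.89) and AT1G55760 (−0.88) for HHO2, and AT1G55760 (−0.93) and AT5G45650 (−0.93) for HHO3. All these r are descriptions, since the samples share groups and arrays.

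**Figure D4:**
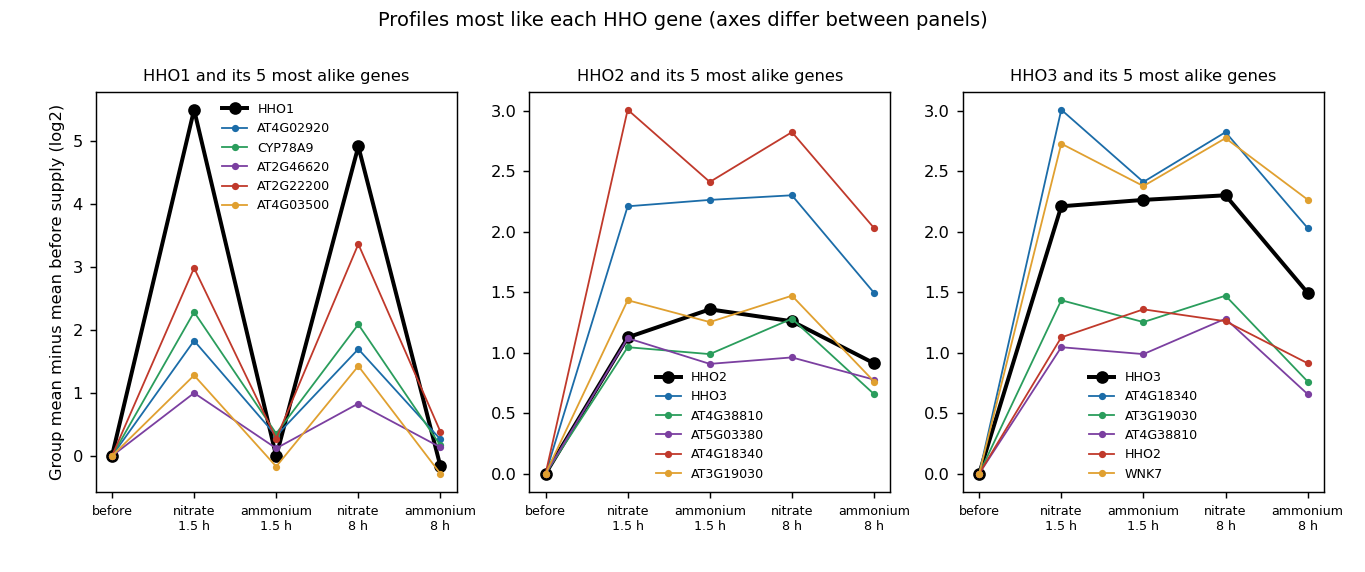
Group mean minus the mean before supply (log2, n = 3 per group) for each HHO gene (black) and the 5 named genes with the highest Pearson r over the 15 samples, with lines drawn only to guide the eye between groups. The genes were picked for this likeness, and each of the 5 beside HHO1 has higher means with nitrate than with ammonium, while the HHO2 and HHO3 sets lie above 0 in all 4 supplied groups.

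Genes of the low-oxygen response also differed between groups in these roots. Of 17 listed genes 7 had a named probe set, and 3 of 7 rose at 1.5 h of nitrate, 2 of 7 at 8 h of nitrate, and with ammonium 7 of 7 at 1.5 h and 4 of 7 at 8 h, with 0 falling. Of all probe sets 5.97%, 8.93%, 5.97% and 7.72% rose in these 4 comparisons, in the same order. Their mean level per sample was 7.75 to 9.85 at 1.5 h of nitrate, 7.39 to 8.84 at 8 h of nitrate, 9.08 to 10.02 at 1.5 h of ammonium, 8.59 to 9.54 at 8 h of ammonium and 6.98 to 7.67 before supply. Their part in the rises of HHO2 and HHO3 was not tested.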

How the data were processed

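The authors deposited 1 expression value per ATH1 probe set and sample, on a log2 scale inferred from the range of 2.45 to 13.96. RMA and limma are named per the submitters' processing notes, with no version or role. The genome build is not given in the sources used here.

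Values were used as deposited for all 22746 probe sets. GEO's array annotation named 1 gene for 13513 of them, several for 503 and none for 8730. Symbols came from RefSeq (TAIR10.1), which matched 13436. Limma 3.58.1 in R 4.3.3 fitted 5 group means over 15 samples, with 9 contrasts, moderated statistics (prior degrees of freedom 5.11, residual 10) and Benjamini-Hochberg adjustment over all probe sets. Exact permutation tests were run in Python 3.11.15. The steps were tested on simulated data. The number of arrays limits the precision (median standard error 0.0921 log2).

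The genes and lists were chosen with earlier results of these data known. Of each list, all measured genes were counted and up to 4 called ones named. Alternatives were a second quantile normalization, median centring, a variance trend with robust estimation, array weights, only the compared groups, a filter on dim probe sets, a replicate block, and each sample left out in turn. Samples that share a replicate number deviated together in part (r = −0.16 to 0.37 over 30 pairs, 14 of them over 0.1). Their median r was 0.09, against −0.05 for samples of different numbers. The main fit has no block, and the replicate block raised the calls over all probe sets to 1.08 to 1.17 times those of the main fit. No sequences were used here.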

Additional observations from a re-analysis of the deposited data

Results flagged for a closer look

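The nitrate minus ammonium difference changed between 1.5 h and 8 h for several genes, by limma's test of that change. It was 0.86 for HHO3 and 0.58 for HHO2, both toward nitrate at 8 h. It was −0.77 for HHO5 and −3.67 for NRT2.5, both toward ammonium at 8 h. The HHO2 call was lost in 9 of the 12 fits that left out 1 sample. Of all probe sets, 2.28% were called with an upward change and 2.22% with a downward one.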

How the results depend on the processing

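The 27 differences of HHO1, HHO2 and HHO3 were refitted under 7 alternatives and with samples left out, which gave 369 values, and 348 kept both direction and call. The rises of HHO1 with nitrate and of HHO2 and HHO3 with both forms did so in all of them. The HHO2 difference between the forms at 8 h was 0.35 with an adjusted p of 0.074 with only those groups in the fit, and 0.25 to 0.45 with 1 sample left out, where 5 of 6 fits lost the call. The change of the ion difference was −0.49 for HHO1 after a second quantile normalization, then called (adjusted p = 0.041), and 0.48 to 0.69 for HHO2 with 1 sample left out, where 1 to 2 of the 3 genes were called. Differences near 0 changed sign without a call. These were HHO1 at 1.5 h of ammonium (0.022 after median centring, −0.083 to 0.082 with 1 sample left out), HHO3 between the forms at 1.5 h (−0.13 to 0.038), HHO6 at 1.5 h of nitrate (−0.20 to 0.012), AT5G06800 at 8 h of ammonium (−0.15 to 0.068), NRG2 at 1.5 h of nitrate (−0.027 to 0.034), PYK10 between the forms at 8 h (0.00443 after median centring, −0.047 to 0.0071 with 1 sample left out), EXPA7 at 8 h of ammonium (−0.0045 to 0.15), MYBC1 (AT2G40970) at 8 h against 1.5 h of nitrate (−0.031 to 0.13) and the change of the ion difference of PGD1 (−0.00485 with array weights, −0.029 to 0.036 with 1 sample left out). With 1 sample left out, the average HHO3 difference over both times was 0.33 to 0.46 and passed the permutation test without ammonium replicate 3 of 1.5 h (0.42, exact adjusted p = 0.045). The causes were not tested. The replicate block changed no call of the 3 genes (HHO2 between the forms at 8 h, 0.35 with adjusted p = 0.026). Array weights, which gave replicates 1 and 3 of the roots before supply 0.252 and 7.64, raised the calls over all probe sets to 6061 in place of 3017 at 1.5 h of nitrate, 7177 in place of 4689 at 8 h of nitrate, 6151 in place of 3139 at 1.5 h of ammonium, 6631 in place of 4008 at 8 h of ammonium, and 1607 in place of 1023 for the change of the ion difference. With only the compared groups, 2069 were called at 1.5 h of ammonium. HHO1 without nitrate lay under the lower quartile of its samples, and no detection call was used here.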
